A study of Pinus pinaster with 12 samples.

Results

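The transcripts described here carried 1 m6A peak in root RNA of ammonium-treated and of water-treated maritime pine, the peaks overlapped, and yet the whole transcript took a smaller share of the reads after m6A precipitation than before it. They were chosen by 2 conditions. Each had exactly 1 peak in the authors' deposited ammonium list and exactly 1 in the authors' deposited water list, overlapping by at least 1 base, which held for 4343 transcripts. Of these, 845 had a lower mean CPM (counts in a library relative to its sum of counts) in the immunoprecipitate (IP) than in the input in both treatments. They are called the IP-low transcripts below. They were 845 of 253670 transcripts counted and of 7077 with a peak in either list. A further 177 of the 4343 were lower in the IP in 1 treatment, and 3321 were not lower in either.

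The libraries came from roots of Pinus pinaster seedlings aged 1 month, all of Segura-Alcaraz provenance, raised in vermiculite and watered with distilled water before the test. An acclimation of 3 days is listed for all 12 libraries. The 4 groups were m6A IP with ammonium, m6A IP with water, input with ammonium and input with water, with 3 libraries each. Ammonium means 80 mL of 3 mM NH4Cl, water means 80 mL of water, and roots were taken 24 h later. The labels describe 3 independent runs, but how many seedlings entered a library is not given in the sources used here. Whole roots were sampled, and the IDs come without gene names, so the tissue label could not be checked against markers.

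N6-methyladenosine (m6A) is a methylated base of messenger RNA, set by a methyltransferase complex, removed by demethylases and bound by reader proteins. In plants it lies mostly near stop codons and in 3′ untranslated regions, and it bears on RNA stability, processing and translation. In m6A RNA immunoprecipitation, messenger RNA is broken into fragments and an antibody holds back those with the mark. A peak is a stretch where IP reads stand above input reads, so it is local, whereas a transcript's count sums reads over its whole length. Ammonium is the nitrogen form that maritime pine takes up by preference.

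The library totals ran from 57945305 to 81534388 counts. All 845 IP-low transcripts passed the filter on low counts in every comparison. Their lowest count in any library was 34 in the ammonium IP, 20 in the water IP, 69 in the ammonium inputs and 72 in the water inputs, so none rested on single reads.

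The IP-low transcripts lost about as much of their read share in both treatments. They took 2.26% ± 0.0336 of all reads in the ammonium IP and 4.29% ± 0.00661 in the ammonium inputs (SD, n = 3 each). With water they took 2.24% ± 0.202 of the IP reads and 4.25% ± 0.0748 of the input reads (SD, n = 3 each). The 3321 other transcripts with a single overlapping peak went the other way, with 25.4% ± 0.278 of the ammonium IP reads and 6.82% ± 0.104 of the ammonium input reads, and with 23.0% ± 1.70 of the water IP reads and 6.72% ± 0.240 of the water input reads (SD, n = 3 each). These values chose the transcripts and are a description with no test.

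For most of the IP-low transcripts the loss was mild. The median log2 ratio of mean CPM, IP over input, was -0.85 with ammonium and -0.77 with water. The lowest values were -6.03 with ammonium and -5.22 with water. A log2 ratio of -1 or lower in both treatments was seen for 292 transcripts (34.6%), -2 or lower for 57 (6.75%) and -3 or lower for 9 (1.07%). The ratios of the 845 correlated between treatments (Pearson r 0.918, Spearman rho 0.885). Ammonium and water ratios share no library, but both were bounded by the same rule, and the transcripts are not replicates.

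**Figure D1:**
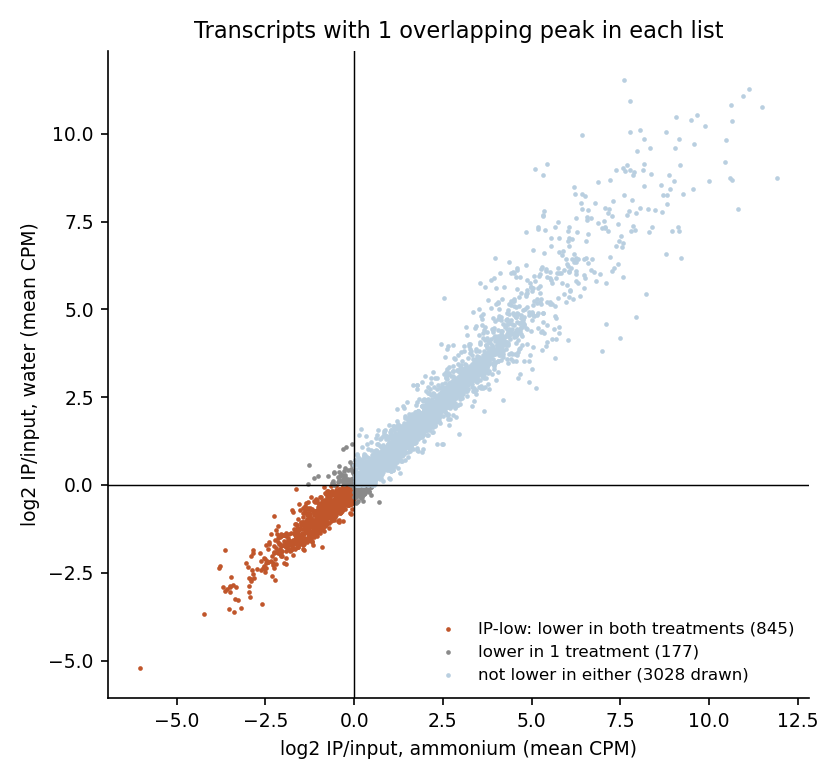
Each point is 1 of 4050 transcripts with a single overlapping peak in each list (293 of those not lower in either treatment had no input read in a treatment, have no ratio and are not drawn), with the log2 ratio of mean IP CPM to mean input CPM with ammonium on the x axis and with water on the y axis. The 845 IP-low transcripts fill the lower left, reach down to -6.03 with ammonium. The 3028 drawn of those not lower in either treatment fill the upper right.

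Every IP library lay below every input library for 676 of the IP-low transcripts with ammonium and for 662 with water. Over all transcripts tested the shares were 51.2% with ammonium and 45.5% with water. In 583 of the IP-low transcripts (69.0%) this held in both treatments. Over all 148273 transcripts that passed the filter over 12 libraries, this was so for 43.3%; the rule used this contrast, so nothing is read from the difference. Replicate 1 of the water IP gave 21.0% of its reads to the 3321 other transcripts with a single overlapping peak, against 24.0% and 23.9% in replicates 2 and 3. Without it the number of 583 was 617, a count added after the data were seen. Leaving out any IP library can only keep or raise this number, so nothing is read from the rise. By library, the median log2 ratio of an IP library to the mean input was -0.88, -0.86 and -0.86 in replicates 1, 2 and 3 of the ammonium IP. In replicates 1, 2 and 3 of the water IP it was -0.74, -1.02 and -0.78. The water IP libraries thus spread more than the ammonium IP libraries, with replicate 2 as the lowest of the 6.

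**Figure D2:**
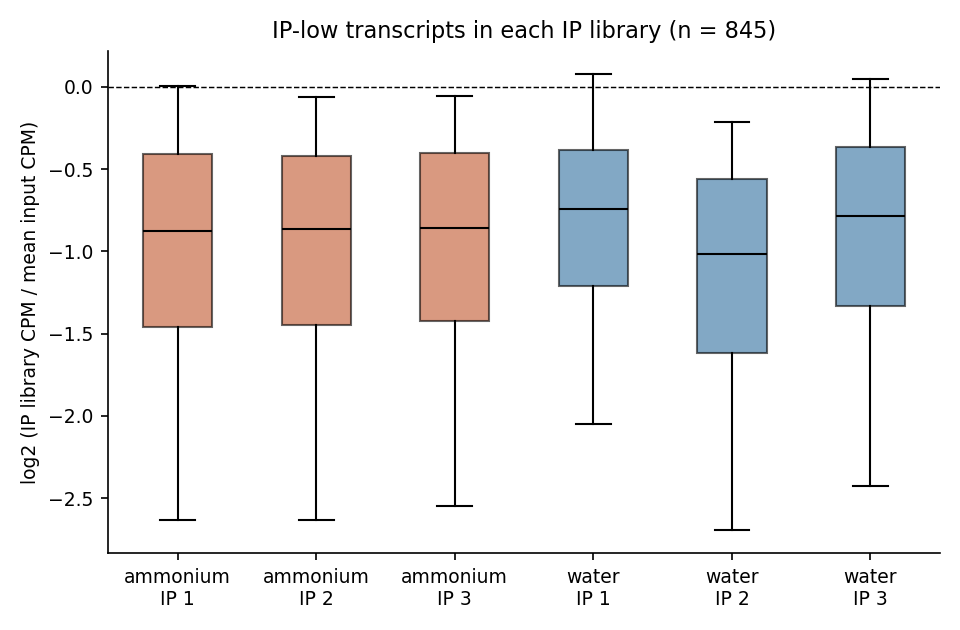
Boxes show the log2 ratio of CPM in 1 IP library to the mean CPM of the 3 inputs of its treatment for the 845 IP-low transcripts, with the median as a line, the quartiles as the box and the 5th and 95th percentiles as whiskers. The 3 ammonium IP libraries have medians between -0.88 and -0.86, and the water IP libraries between -1.02 and -0.74.

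How far these transcripts count as lower in the IP depended on the scaling. Trimmed mean of M-values (TMM) scaling uses a trimmed mean of log ratios between libraries rather than the library total alone. With TMM over all 12 libraries, 458 of the 845 (54.2%) were still below input in both treatments, and 211 were at or above input in both. It did not set the bulk of transcripts equal. In a fit of all 12 libraries with TMM, the median log2 ratio over all transcripts was -0.38 with ammonium and -0.24 with water. Which scale is right was not tested. With size factors of the DESeq2 type, 507 stayed below. In the quasi-likelihood test of edgeR (TMM scaling, adjusted p by Benjamini-Hochberg), 391 of the 845 were called lower in the IP with ammonium, beside 48.5% of all transcripts tested, and 260 with water, beside 32.4%. The same test called 99 of them higher in the IP with ammonium, beside 37.9% of all, and 6 with water, beside 35.9%. With each library left out, the higher calls were 31 to 104 with ammonium and 0 to 33 with water. With library totals as the scale, 645 were called lower with ammonium (53.4% of all transcripts) and 550 with water (38.7%). The rule used these contrasts, so the counts describe the transcripts and support nothing.

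Set against all transcripts, the IP-low transcripts were not among the lowest with ammonium. On the TMM scale their median fitted log2 ratio, IP over input, was -0.31, against -0.74 for all transcripts tested, and 245 of the 845 lay below the median of all. The distance of 0.43 was 0.09 to 0.68 with each library left out and -0.06 without the filter on low counts. With water the medians were -0.24 for the IP-low transcripts and -0.30 for all, and 396 lay below the median of all. That distance changed sign with single libraries, from -0.30 without replicate 3 of the inputs to 0.32 without replicate 1 of the IP, so no side can be given with water.

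Transcripts of like abundance without a peak lost more. Within the middle range of input levels of the IP-low transcripts (13.2 to 59.1 CPM with ammonium), 11383 transcripts without a peak in either list had a median log2 ratio of mean CPM of -2.29 with ammonium, and 76.8% of them were lower in the IP. The 423 IP-low transcripts in that range had a median of -0.88. With water, within 13.3 to 57.4 CPM, the median was -0.81 for 423 IP-low transcripts and -1.83 for 11188 without a peak, of which 77.6% were lower in the IP. The 3321 other transcripts with a single overlapping peak had medians of 2.07 with ammonium and 1.98 with water. No test was made of these differences, since the rule set an upper bound on the ratios of the IP-low transcripts.

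The peaks themselves were strong. In the authors' deposited lists, whose fold enrichment is a ratio of IP over input within the peak, the IP-low transcripts had a median fold of 13.6 with ammonium (quartiles 7.17 and 29.3, range 1.35 to 629) and of 12 with water (quartiles 6.71 and 27.2, range 1.30 to 398). A fold of 10 or more was listed for 525 of the 845 with ammonium (62.1%) and for 494 with water (58.5%). The other transcripts with a single overlapping peak had medians of 23.0 with ammonium and 20.2 with water, and 72.8% and 71.1% of them reached a fold of 10. The lists have 1 fold per peak and no replicates, so this difference has no test.

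Peaks of the IP-low transcripts were narrower and lay further along the transcript ID than those of the other group. Their median width was 199 bases with ammonium and 198 with water, against 247 and 243 bases in the other group. A width over 300 bases was listed for 19.4% of the IP-low transcripts with ammonium and 16.3% with water, against 34.2% and 32.1% in the other group. The median peak ended 1024 bases from the start of the transcript with ammonium and 1013 with water, against 609 and 616 bases in the other group. Peaks that started after base 1000 made up 45.3% with ammonium and 45.7% with water, against 21.0% and 21.3%. Transcript lengths are not given in the files, but the end of a peak is the least length a transcript can have. The median peak thus covered at most 19.1% of its transcript with ammonium and 18.2% with water. In the other group these upper bounds were 40.0% and 37.8%. The bounds fall as peaks end later, so they do not show in which group peaks cover less of a transcript. Peaks had no replicates, so none of these differences has a test.

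**Figure D3:**
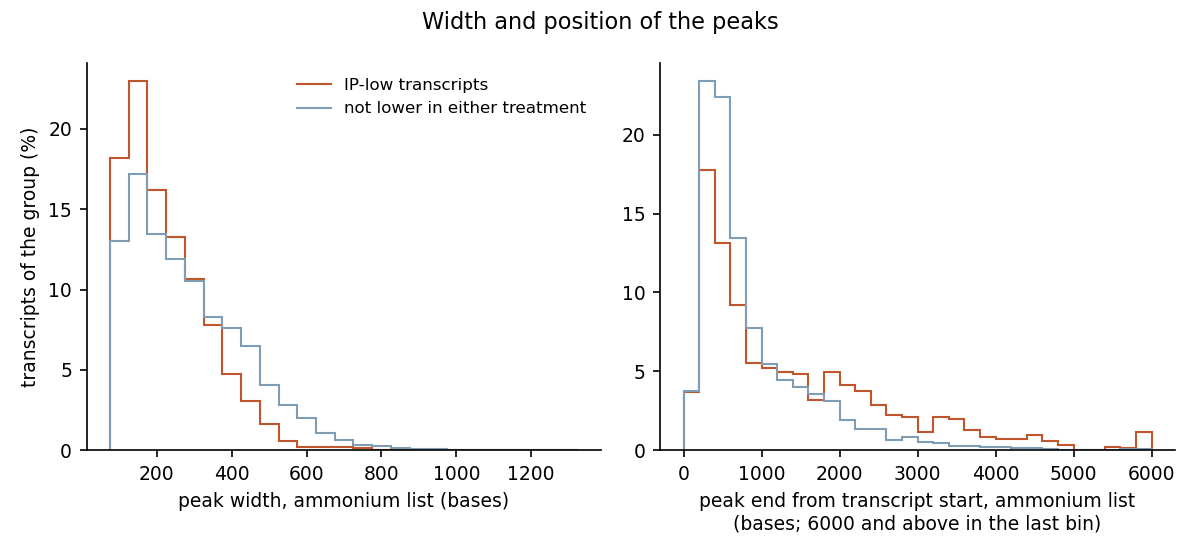
The left panel gives the share of transcripts by peak width in steps of 50 bases, and the right panel by the distance of the peak's end from the transcript start in steps of 200 bases, both in the ammonium list, for the IP-low transcripts (n = 845) and for those not lower in either treatment (n = 3321). The curve of the IP-low transcripts is shifted to narrower widths (median 199 against 247 bases) and to later ends (median 1024 against 609 bases).

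Input levels also differed, as the rule favours. The median input level was 28.1 CPM for the IP-low transcripts and 7.37 CPM for the other group with ammonium, and 28.2 and 7.67 CPM with water. In the IP the medians were 14.2 CPM for the IP-low transcripts and 24.6 CPM for the other group with ammonium, and 14.2 and 24.4 CPM with water. CPM is not divided by length, and longer transcripts give more reads.

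Among the IP-low transcripts, those with the lowest ratios had narrower and weaker peaks than those with the highest. The 212 with the lowest mean log2 ratio (median -1.78) had a median peak width of 150 bases in both lists, and median folds of 10.0 with ammonium and 10.6 with water. The 211 with the highest mean ratio (median -0.24) had median widths of 248 bases with ammonium and 246 with water, and median folds of 19.9 and 15.9. Peak ends ran the other way, with medians of 1377 bases for the lowest ratios and 826 for the highest in the ammonium list. This trend was weak over all 845, where the log2 ratio and log2 peak end had a Spearman rho of -0.082 with ammonium and -0.109 with water. Over all 845, the log2 ratio correlated with log2 fold at a Spearman rho of 0.266 with ammonium and 0.178 with water, and with width at 0.269 and 0.181. Folds, ratios and widths come from the same libraries, and folds rose with input level as well (rho 0.386 with ammonium, 0.410 with water), so these values are descriptions.

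**Figure D4:**
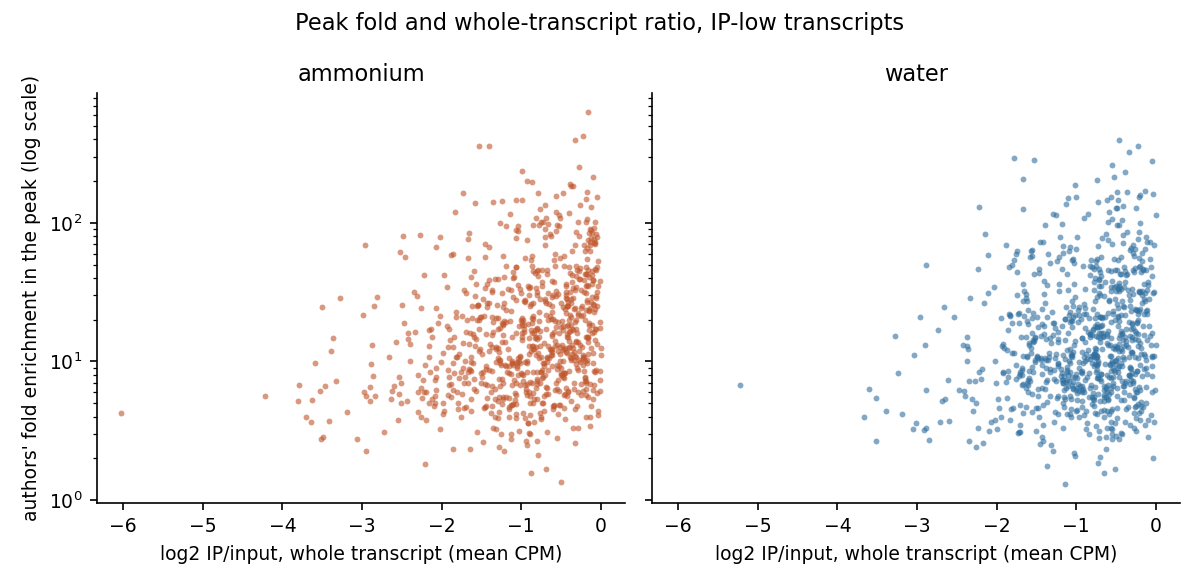
Each point is 1 of the 845 IP-low transcripts, with the log2 ratio of mean IP CPM to mean input CPM over the whole transcript on the x axis and the authors' fold enrichment in the peak on a log y axis, for ammonium (left) and water (right). Folds spread widely at each ratio and reach 629 near a ratio of 0, while the 3 transcripts with the lowest mean ratios have folds from 4.00 to 6.75.

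The transcript with the deepest loss was also the most abundant. pp_194247 had 8.14, 10.7 and 8.99 CPM in the ammonium IP and 699.5, 532 and 582 CPM in the ammonium inputs. With water it had 18.6, 10.4 and 22.2 CPM in the IP and 632, 702 and 576 CPM in the inputs. Every IP library was thus far below every input library, by a log2 ratio of -6.03 with ammonium and -5.22 with water. Its peak, at bases 1297 to 1496 in the authors' ammonium list and 1297 to 1397 in the water list, had folds of 4.27 and 6.75.

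The next 2 at the low end had peaks of like strength. pp_134481 had 1.255, 1.49 and 1.24 CPM in the ammonium IP and 22.2, 24.1 and 27.8 CPM in the ammonium inputs, a log2 ratio of -4.22. With water it had 2.14, 1.16 and 1.83 CPM in the IP and 21.4, 22.6 and 20.9 CPM in the inputs, a log2 ratio of -3.66. The authors' folds of its peak, at bases 1615 to 1810 with ammonium and 1712 to 1810 with water, were 5.67 and 4.00. pp_228222 had log2 ratios of -3.52 in both treatments and a peak of 200 bases near the start of the transcript, the same in both lists, with folds of 6.12 and 5.43. All 3 stayed below input under TMM scaling.

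The 3 transcripts with the highest input levels differed in the strength of their peaks. pp_109023 had 89.7, 77.8 and 59.8 CPM in the ammonium IP and 665, 571 and 539 CPM in the ammonium inputs. In the water IP it had 117, 63.9 and 58.6 CPM, and in the water inputs 568, 610 and 598 CPM. Its log2 ratios were -2.96 with ammonium and -2.89 with water, yet its peak at bases 738 to 886 had folds of 68.9 and 50 in the authors' lists. pp_95898, the other of the 3 most abundant, had log2 ratios of -1.82 and -1.68 and folds of 10.8 and 6.76 at bases 1343 to 1592.

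By the geometric mean of both lists, the highest folds were those of pp_159358, pp_85571 and pp_144924, whose peaks all started after base 1000. Such starts were common among the IP-low transcripts, as given above, and a link of fold with position was not tested. pp_159358 had 312, 357 and 327 CPM in the ammonium IP and 354, 384 and 374 CPM in the ammonium inputs, and 307, 260 and 308 CPM in the water IP and 349, 333 and 338 CPM in the water inputs. Its log2 ratios of -0.16 and -0.22 were close to 0, while its peak at bases 2195 to 2494 had folds of 629 with ammonium and 361 with water in the authors' lists. pp_85571, with a peak at bases 3263 to 3758, had folds of 425 and 398 and log2 ratios of -0.22 and -0.46. Under TMM scaling both were above input in both treatments.

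pp_144924 joined a high fold with a clear loss. It had 27.0, 23.5 and 32.6 CPM in the ammonium IP and 61.5, 93.7 and 85.8 CPM in the ammonium inputs, a log2 ratio of -1.54. With water it had 20.8, 18.7 and 27.6 CPM in the IP and 64.7, 57.96 and 72.3 CPM in the inputs, again a log2 ratio of -1.54. Its peak began at base 4692 with ammonium and at base 4741 with water, ended at base 4841 in both lists, and had folds of 356 and 285. The IP and input libraries did not overlap in either treatment, and the transcript stayed below input under TMM scaling.

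Width and fold had their other extremes in less abundant transcripts and in pp_214211. By the mean of both lists the widest peak belonged to pp_214211, at bases 2896 to 3595 with ammonium and 2896 to 3645 with water, with folds of 19.9 and 14.8 and log2 ratios of -1.56 and -1.52. The narrowest, 95 bases at 425 to 519 of pp_173426, had folds of 4.75 with ammonium and 9.75 with water. By the geometric mean of both lists the lowest fold was that of pp_91675, with 1.56 in the ammonium list and 1.57 in the water list. Its IP libraries (0.956 to 1.40 CPM with ammonium, 0.449 to 2.20 with water) overlapped its inputs (1.11 to 3.43 and 1.76 to 2.91 CPM).

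Transcripts near the threshold had IP and input values within each other's range with ammonium. Just inside it, pp_178043 had 21.4, 33.2 and 25.7 CPM in the ammonium IP and 25.6, 28.4 and 26.4 CPM in the ammonium inputs, and pp_212882 had 30.6, 30.8 and 27.5 CPM in the ammonium IP and 34.1, 24.5 and 30.5 CPM in the ammonium inputs. Just outside it, pp_239871 had 19.0, 13.4 and 16.1 CPM in the ammonium IP and 18.7, 14.7 and 15.1 CPM in the ammonium inputs, and pp_203271 had 28.2, 21.8 and 25.5 CPM in the ammonium IP and 26.4, 24.4 and 24.6 CPM in the ammonium inputs. All 4 were above input in both treatments under TMM scaling.

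The rule required the peaks of both treatments to overlap, in the IP-low transcripts and in the other group alike. Their agreement in position was thus partly fixed in advance and is a description. In 452 of the 845 (53.5%) start and end were the same in both lists, close to the 52.1% of the other group. The peak was wider in the ammonium list for 238 and wider in the water list for 144. The authors' fold was higher in the ammonium list for 503 and in the water list for 335, with a median log2 difference of 0.14 (0.10 in the other group). Log2 folds of the lists correlated over the 845 at a Pearson r of 0.913. Depth ran from 65539363 to 73185176 counts in the ammonium IP and from 57945305 to 63522543 in the water IP, and its part in fold and width was not tested.

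A fold at least 2 times higher was listed with ammonium for 59 transcripts and with water for 28. The largest difference was that of pp_185352, whose peak spanned bases 399 to 896 with a fold of 34.8 in the authors' ammonium list and bases 697 to 847 with a fold of 5.52 in the water list. Its IP levels over the whole transcript, a measure unlike the fold within a peak, were 55.0, 58.9 and 67.6 CPM with ammonium. With water they were 69.2, 52.9 and 56.7 CPM. pp_116918 had folds of 10.3 with ammonium and 2.67 with water at bases 245 to 342. In the other direction, pp_189377 had folds of 9 with ammonium and 46.3 with water at bases 1242 to 1341, and IP levels of 2.99, 2.42 and 2.67 CPM with ammonium and 6.58, 3.03 and 6.33 CPM with water. pp_181043 had folds of 3.12 and 15 at bases 682 to 779. With 1 list per treatment these differences have no error. The median log2 difference of fold was positive in the other group too, as given above. The higher count with ammonium is thus not read as particular to the IP-low transcripts.

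Ammonium changed the level of few IP-low transcripts in the input. The rule did not use this contrast. The same test in edgeR, with p adjusted over 114887 transcripts, called 7 of the 845, 6 higher and 1 lower, beside 0.424% of all transcripts (0.828% of the IP-low transcripts, 0.144% of the 2771 others that could be tested). An unadjusted p under 0.05 was reached by 108 (12.8%), beside 10.4% of all. The ammonium and water inputs did not overlap for 142 of the IP-low transcripts, or 16.8%, beside 13.3% of all. The median log2 change, ammonium over water, was 0.05, beside 0.00 for all transcripts, and -0.00168 with library totals as the scale. In whole roots, fewer cells of a type and less RNA per cell cannot be told apart.

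The count of 7 moved with single libraries. It was 54 without replicate 1 of the ammonium inputs, beside 2494 higher and 2427 lower calls over all 120601 transcripts tested. It was 3 without replicate 2 (278 higher and 27 lower over all) or replicate 3 of these (209 and 19). It was 0 without replicate 1 (36 and 3 over all) or replicate 2 (77 and 13) of the water inputs, and 3 without replicate 3 (218 and 32). Calls over all transcripts thus moved with the same libraries. DESeq2 called 19, beside 2.47% of all transcripts. The fit of all 12 libraries called 0, as it did over all 148273 transcripts tested.

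pp_41451 rose the most among those called. It had 50.4, 70.4 and 71.5 CPM in the ammonium inputs and 28.4, 26.2 and 32.0 CPM in the water inputs, a log2 fold change of 1.20 (SE 0.13, adjusted p = 0.00726 in edgeR). The groups did not overlap, and the call was lost without replicate 1 (adjusted p = 0.109 in edgeR) or replicate 2 (adjusted p = 0.0534 in edgeR) of the water inputs. In the IP it had 31.9, 59.5 and 48.9 CPM with ammonium and 24.3, 18.0 and 24.3 CPM with water, again without overlap (log2 fold change 1.29, SE 0.24, adjusted p = 0.464 in edgeR). Its peak lay at bases 199 to 496 in both lists, with folds of 23.7 with ammonium and 14.0 with water.

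pp_76153 and pp_137807 were also higher in all 3 ammonium libraries of both kinds. pp_76153 had 34.9, 40.4 and 45.4 CPM in the ammonium inputs and 22.3, 19.3 and 23.9 CPM in the water inputs (log2 fold change 0.93, SE 0.11, adjusted p = 0.00929 in edgeR), a call lost without replicate 1 or 2 of the water inputs. Its IP levels were 24.0, 22.9 and 26.8 CPM with ammonium and 14.7, 12.2 and 16.3 CPM with water. pp_137807 had 108, 124 and 120 CPM in the ammonium inputs and 84.5, 80.0 and 83.5 CPM in the water inputs (log2 fold change 0.56, SE 0.09, adjusted p = 0.0327 in edgeR). This call was lost without any one of 5 inputs, all but replicate 1 of the ammonium inputs. In the IP it had 73.3, 64.4 and 66.5 CPM with ammonium and 41.0, 45.4 and 37.3 CPM with water (log2 fold change 0.94, SE 0.18, adjusted p = 0.464 in edgeR). Its peak at bases 2131 to 2428 had folds of 163 and 153.

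The other transcripts called higher were named after their values were seen. pp_85655 had 50.4, 61.7 and 54.6 CPM in the ammonium inputs and 34.1, 32.1 and 34.7 CPM in the water inputs (log2 fold change 0.78, SE 0.10, adjusted p = 0.0129 in edgeR), a call lost without any one of the water inputs. In the IP it had 4.12, 5.30 and 3.95 CPM with ammonium and 21.0, 1.89 and 4.81 CPM with water, where replicate 1 of the water IP stood far above the others. pp_215275 (log2 fold change 0.66, SE 0.10, adjusted p = 0.0273 in edgeR) and pp_86812 (log2 fold change 0.79, SE 0.14, adjusted p = 0.0469 in edgeR) were higher in the ammonium inputs as well, and both calls were lost on leaving out any input but replicate 1 of the ammonium inputs.

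pp_94509 was the transcript called lower. It had 7.996, 7.96 and 8.72 CPM in the ammonium inputs and 14.3, 13.1 and 12.7 CPM in the water inputs (log2 fold change -0.65, SE 0.11, adjusted p = 0.0394 in edgeR), and it too lost its call without any input but replicate 1 of the ammonium inputs. Its IP levels of 3.23, 3.16 and 4.17 CPM with ammonium and 6.36, 3.55 and 10.9 CPM with water overlapped. Next in this direction, pp_193633 had 13.2, 8.35 and 9.01 CPM in the ammonium inputs and 20.6, 17.4 and 20.8 CPM in the water inputs (log2 fold change -0.89, SE 0.17, adjusted p = 0.0737 in edgeR). It passed without replicate 1 of the ammonium inputs (adjusted p = 0.000552 in edgeR) and with DESeq2 (adjusted p = 0.00142).

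**Figure D5:**
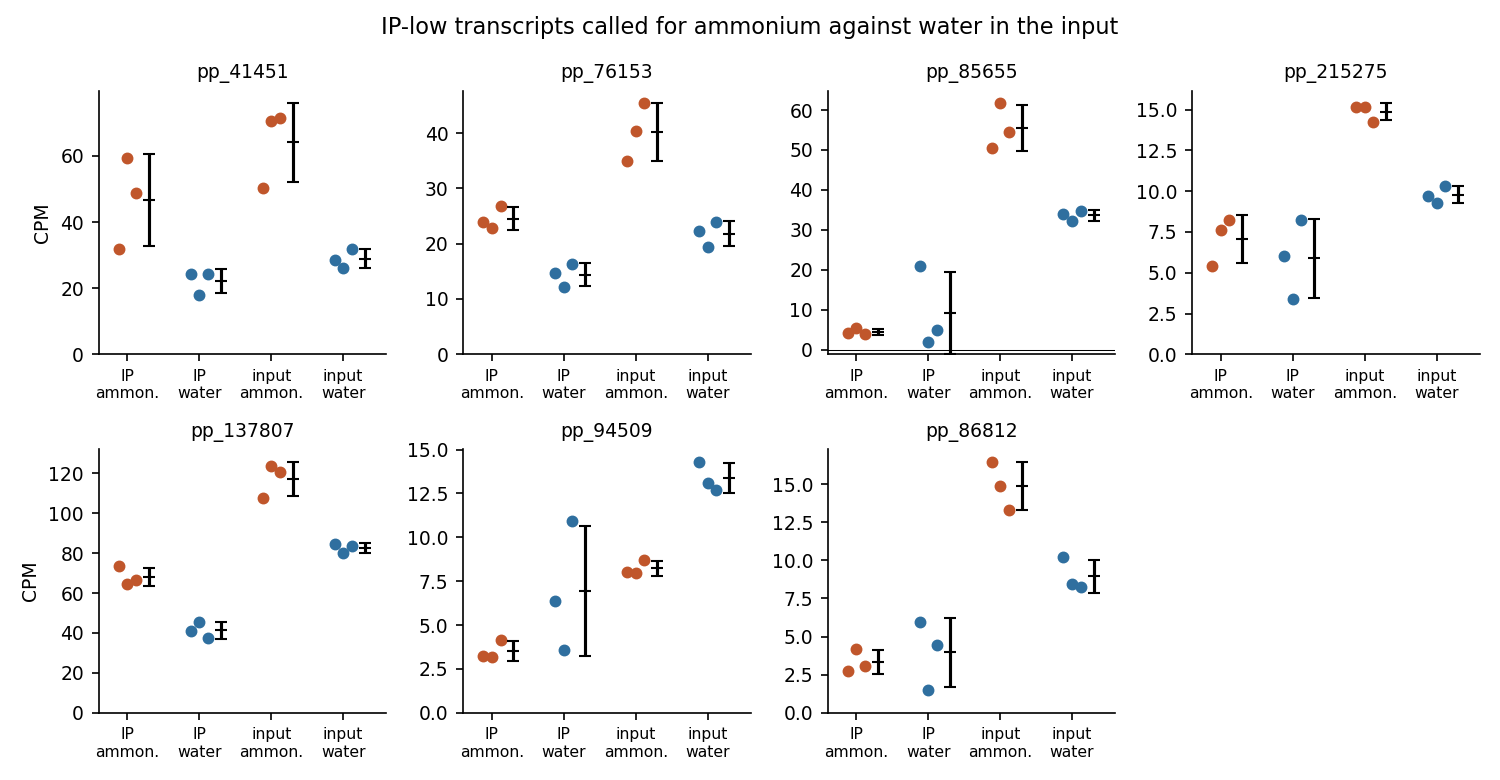
Points are CPM in each of 3 libraries for the 7 IP-low transcripts called for ammonium against water in the input, in the IP with ammonium, the IP with water, the input with ammonium and the input with water, with the mean and SD beside them. Inputs do not overlap between treatments in any of the 7, and 6 of them are higher with ammonium. The IP lies below the input of its treatment in mean CPM throughout, as the rule required.

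In the IP, edgeR called none of the 845 for ammonium against water, as it called 0% of the 99846 transcripts tested, and the smallest adjusted p among the 845 was 0.464. Unadjusted p was under 0.05 for 154 (18.2%), beside 10.4% of all and 24.7% of the other transcripts with a single overlapping peak. DESeq2 called 7, all higher, beside 0.316% of all transcripts, pp_41451 (adjusted p = 0.00666) and pp_137807 (adjusted p = 0.0155) among them. The ammonium and water IP libraries did not overlap for 134 of the IP-low transcripts, or 15.9%, beside 13.2% of all. Without the filter on low counts 21 passed, 16 higher and 5 lower, beside 575 higher and 1288 lower of all 212529 transcripts tested. In the fit of all 12 libraries 27 passed, all higher, beside 780 higher and 99 lower of all 148273 tested. The median SE of a log2 change was 0.24.

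Relative to all transcripts, the IP-low transcripts stood higher in the ammonium IP than in the water IP. Their median log2 change was 0.19, beside -0.23 for all transcripts and 0.28 for the other transcripts with a single overlapping peak. With library totals as the scale the median was -0.03, beside -0.45 for all, so its sign turned while the distance to all transcripts stayed at 0.42. On leaving out replicate 1, 2 or 3 of the water IP, that distance was 0.33, 0.24 or 0.55, and it was 0.20 with a filter of 50 reads in 3 libraries and 0.64 without a filter. The smallest p in the lower direction belonged to pp_195694 and pp_57730. For pp_57730 the values were 24.3, 33.1 and 27.0 CPM in the ammonium IP and 51.7, 67.6 and 69.2 CPM in the water IP (log2 fold change -0.96, SE 0.21, adjusted p = 0.464 in edgeR). Its ammonium inputs ran from 38.7 to 56.7 CPM and its water inputs from 36.1 to 138 CPM. pp_195694 had 51.2, 64.7 and 51.3 CPM in the ammonium IP and 130, 89.8 and 139 CPM in the water IP, with water inputs from 89.3 to 329 CPM (log2 fold change -0.88, SE 0.20, adjusted p = 0.464 in edgeR).

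For the difference of the 2 log2 ratios, ammonium minus water, no IP-low transcript passed, and none of all 148273 tested did (0%). The smallest adjusted p among the 845 in edgeR was 0.556, and DESeq2 called 0 of the 845, beside 0.0627% of all. An unadjusted p under 0.05 was reached by 117 (13.8%), beside 8.84% of all and 20.2% of the other transcripts with a single overlapping peak. The median log2 change of the ratio was 0.25, beside -0.22 for all transcripts and 0.37 for the other transcripts with a single overlapping peak. On library totals it was -0.02, beside -0.50 for all. The distance to all transcripts was 0.48 and fell to 0.16 without replicate 1 of the water IP. In that fit the median was 0.15 for the IP-low transcripts and -0.00965 for all transcripts, and the cause was not tested. Without replicate 2 of the water IP the distance was 0.38, and without replicate 3 it was 0.61.

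The 2 transcripts with the smallest p for a higher ratio differed more in the IP than in the input. pp_247236 had 58.02, 67.2 and 76.2 CPM in the ammonium IP and 44.2, 41.9 and 42.7 CPM in the water IP, beside 106, 106 and 120 CPM in the ammonium inputs and 105, 90.1 and 104 CPM in the water inputs. Neither the IP groups nor the inputs overlapped, with ammonium higher in both kinds of library, and the log2 change of the ratio was 0.76 (SE 0.17, adjusted p = 0.556 in edgeR). Its peak at bases 2012 to 2307 had folds of 102 with ammonium and 56.2 with water in the authors' lists. pp_137977 had 3.97, 3.48 and 3.71 CPM in the ammonium IP and 2.31, 2.53 and 1.74 CPM in the water IP, with inputs of 20.8 to 24.3 CPM in all 6 libraries (log2 change of the ratio 1.08, SE 0.25, adjusted p = 0.556 in edgeR).

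In the lower direction, pp_197563 had 3.54, 3.43 and 2.52 CPM in the ammonium IP and 9.67, 3.43 and 11.2 CPM in the water IP, where replicate 2 of the water IP lay within the ammonium range. Its log2 change of the ratio was -1.09 (SE 0.49, adjusted p = 0.556 in edgeR), and its peak had folds of 6.4 with ammonium and 24.2 with water. pp_234151 had 4.69, 4.60 and 3.85 CPM in the ammonium IP and 11.5, 7.67 and 8.77 CPM in the water IP (log2 change of the ratio -0.62, SE 0.28, adjusted p = 0.556 in edgeR), with the IP groups apart. Over the 845, the change of the authors' fold between lists and the fitted change of the ratio correlated at a Spearman rho of 0.353; both came from the same libraries.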

How the data were processed

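The authors deposited raw read counts (whole numbers) of 12 libraries by transcript ID, and bcl2fastq and BWA are named in the submitters' processing notes. No version, reference, strandedness or rule for reads that match several transcripts is given in these sources, so transcripts of shared sequence could share reads. The authors also deposited 1 peak list per treatment, which per the file headers gives each peak a fold enrichment (a ratio) and a p-value; the peak caller is not given in the sources used here. The lists have BED column names, so starts were taken as counted from 0 and are printed from 1.

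CPM used library totals, and no column of values was left out. The tests were those of edgeR 4.0.16 under R 4.3.3 (TMM scaling, minimum count 10 and minimum total 15, robust quasi-likelihood F tests, two-sided), with Benjamini-Hochberg adjustment over all transcripts and calls at an adjusted p under 0.05. Contrasts of 2 groups used their 6 libraries and the ratio change used 12. SE is the log2 change over the root of F. Scripts were tested on simulated data, where the test of the ratio change recovered fewer of the changed transcripts than the tests of 2 groups. DESeq2 1.42.0, other scalings and filters, a replicate block and omission of each library were alternatives. The p-values measure the spread between 3 libraries per group. Transcripts were chosen, and named, with earlier results of these data known; the naming rule took the extremes of ratio, fold, width, input level and change of fold, the transcripts nearest the threshold, and the 2 smallest p in each direction of each ammonium test.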

Additional observations from a re-analysis of the deposited data

How the results depend on the processing

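The number of IP-low transcripts fell to 458 with TMM scaling over all libraries and to 507 with DESeq2-type size factors, all of them among the 845. Omission of each library in turn gave 815 to 856, and the other rules tried for peaks and means gave 583 to 938. With library totals edgeR called 645 of the 845 lower in the IP with ammonium (53.4% of all transcripts) and 550 with water (38.7%). For ammonium against water in the input, 19 passed with DESeq2, 19 without a filter and 0 in the fit of all 12 libraries. With each library left out, 0 to 54 passed, and calls over all transcripts moved as well. Over all transcripts, 2044 passed as higher and 799 as lower with DESeq2, of 114887 tested. Without a filter these were 1640 and 821 of 204657, and none passed in the fit of all 12 libraries. In the IP, 7 passed with DESeq2, 21 without a filter and 27 in the fit of all 12 libraries. Over all transcripts, 160 passed as higher and 156 as lower with DESeq2, of 99846 tested. Without a filter these were 575 and 1288 of 212529, and in the fit of all 12 libraries 780 and 99 of 148273. The cause was not tested for these. The share of reads in the ammonium inputs was 4.30% when only transcripts that passed the filter were counted. Same-numbered libraries were not taken as pairs, since not every correlation of their deviations passed 0.1. Over all pairs of groups the correlations ran from -0.0727 to 0.108, and between IP and input with ammonium from 0.0697 to 0.108. Between treatments, 4 of 6 inputs and 4 of 6 IP libraries were closest to their own number. Between IP and input, this was so for 6 of 6 libraries with ammonium and 2 of 6 with water. With the replicate number as a block, 8 of the 845 passed in the input, 0 in the IP and 0 for the ratio. Over all transcripts the block called 720 higher and 176 lower of 114887 in the input. In the IP it called 5 and 3 of 99846, and for the ratio none. With the block, 407 of the 845 were called lower in the IP with ammonium, beside 57818 of all 123957. With water 243 were, beside 35836 of all 127525. Of single transcripts named for the ammonium tests, none changed direction under any alternative run; pp_94509 lost its call with the block (adjusted p = 0.0551 in edgeR) and pp_193633 gained one (adjusted p = 0.0272 in edgeR).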

Other observations

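Among the IP-low transcripts, 17 pairs had consecutive numbers (34 transcripts), and no run was longer. None of the 17 pairs had the same peak position in the ammonium list, and the authors' ammonium folds were closest in pp_202075 and pp_202076 (8 and 7.94) and in pp_120235 and pp_120236 (6.89 and 7.58). The pair pp_142057 and pp_142058, picked after its values were seen, had peaks ending at bases 6613 and 6490 with folds of 14.5 and 21.4 in the authors' ammonium list, and input levels of 49.4 and 48.7 CPM with ammonium. For 188 of the 845, the next lower or higher ID carried a peak in a list.

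Peak widths moved in steps. In the authors' ammonium list 95.5% of the peaks of the IP-low transcripts had a width within 5 bases of a multiple of 50, and in the water list 95.4%. For transcripts not lower in either treatment these shares were 68.3% and 70.2%. The smallest start among the IP-low transcripts was base 49 in both lists.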
